A study of Mus musculus with 3 samples.

Results

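The glycine tRNAs other than Gly-GCC are tRNA-Gly-CCC, tRNA-Gly-TCC and tRNA-Gly-ACC. They were taken by name from the deposited table of tRNA genes. Of its 446 genes, 17 belong to them, 7 of Gly-CCC, 8 of Gly-TCC and 2 of Gly-ACC. The remaining 15 glycine genes are Gly-GCC and serve as the comparison. Small RNA was sequenced from mouse epididymis, the duct in which sperm mature, in 1 wild type library and in 2 libraries from Alkbh3-/- animals, called A and B here after the order of their columns. Alkbh3 encodes a demethylase that acts on methylated adenosine and cytidine in nucleic acids, tRNA among them. The animals were untreated, and strain, age, sex, the construction of the Alkbh3 allele and any pooling of animals are not given in the labels. The name of the wild type column begins with B6, possibly a strain, so genotype and genetic background cannot be told apart. The level of Alkbh3 was not used as a check on the genotypes. The reads are fragments cut from a gel at 15 to 50 nt, so intact tRNA was not measured.

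Transfer RNA is named here by its anticodon, and tRNAs with the same amino acid and anticodon form an isoacceptor. CCC, TCC and GCC read the glycine codons GGG, GGA and GGC or GGU. In the gene names, the first number marks the isodecoder, a distinct mature sequence, and the second marks the gene copy of that sequence. Cutting near the anticodon loop, by nucleases such as angiogenin, gives long fragments of about the sizes cut out here, and the glycine and glutamate tRNAs are known as major sources of such fragments in the epididymis and in maturing sperm. Base methylation can block cleavage, and it can also stop the reverse transcription used to make the library. With these data, an altered amount of a fragment and an altered chance of reading it cannot be told apart. Nor can fewer cells of a type and less RNA per cell.

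The 16 genes with coordinates in the mm10 build are 71 to 74 nt long, and gene context was read from GENCODE M21. Of the 7 Gly-CCC genes, 4 lie within 112.85 kb of chromosome 3. The first, tRNA-Gly-CCC-5-1 at chr3:96311254-96311324 on the plus strand, stands between annotated genes. The copies tRNA-Gly-CCC-2-1 (chr3:96351167-96351237, minus strand) and tRNA-Gly-CCC-2-2 (chr3:96382911-96382981, plus strand) lie in introns of long noncoding RNA genes. The outermost is tRNA-Gly-CCC-3-1 at chr3:96424033-96424103 on the minus strand. Outside the cluster, tRNA-Gly-CCC-1-1 (chr6:86403893-86403963, plus strand) lies 256 bp from Tia1. Its twin tRNA-Gly-CCC-1-2 (chr17:25875088-25875158, plus strand) lies inside a UTR exon of Mettl26 on the same strand. Single copy tRNA-Gly-CCC-4-1 maps to chr4:32230250-32230320 on the plus strand. Of the 8 Gly-TCC genes, 5 lie within 64.8 kb of chromosome 1, near the Fc receptor genes, and tRNA-Gly-TCC-1-2 (chr1:171064699-171064770, minus strand) overlaps a UTR exon of Fcgr3 on the same strand. The sole copy of the rarer Gly-TCC sequence, tRNA-Gly-TCC-2-1, is on chromosome X (chrX:41225880-41225951, plus strand), and tRNA-Gly-ACC-1-1 is at chr11:48823728-48823801 on the plus strand. The remaining member, tRNA-Gly-ACC-2-1, had no coordinates and was listed at 0 in all 3 libraries.

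The members spanned nearly the whole range of tRNA levels in this tissue. Levels are reads-per-million (RPM) values, taken over the 15107055 wild type, 15411457 library A and 21169908 library B reads in 5 RNA classes. Lengths come from separate sheets, which list the reads of each gene by length in 2 end classes, numbered but not named, and which hold more reads per gene than the gene table. Gly-CCC stood at 19754, 12647 and 13115 RPM in the wild type library, library A and library B, the third most abundant isoacceptor in each, of 50, 48 and 48 with reads. Gly-TCC reached 126.6, 76.7 and 136.9 RPM and ranks 19, 20 and 16. Gly-ACC reached 5.43, 3.31 and 4.96 RPM and ranks 44, 43 and 44. The order CCC, TCC, ACC was therefore kept in every library, and the gaps were far wider than the spread between the Alkbh3-/- libraries. That spread was small for Gly-CCC, but Gly-TCC differed by 0.84 on the log2 scale between A and B, with the wild type value in between. For comparison, Gly-GCC stood at 189621, 127993 and 132775 RPM, and each library held between 9.88 and 10.4 Gly-CCC reads per 100 Gly-GCC reads.

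Within Gly-CCC a single isodecoder carried nearly all reads. Gly-CCC-5, with its 1 gene, held 97.7% of them in the wild type library, 96.8% in A and 95.8% in B, at 19291, 12239.5 and 12563 RPM. Gly-CCC-1, with 2 copies, followed at 250.3, 249.5 and 379.0 RPM. Gly-CCC-2 stood at 90.0, 72.3 and 78.2 RPM, Gly-CCC-3 at 71.5, 50.4 and 57.0 RPM, and Gly-CCC-4 at 51.2, 35.4 and 38.0 RPM. Gly-CCC-2, -3, -4 and -5 were each highest in the wild type library, whereas Gly-CCC-1 was level in wild type and A and higher in B. Gly-CCC-1 therefore made up 1.27% (exact 95% interval 1.23 to 1.31) of Gly-CCC reads in wild type, 1.97% (1.91 to 2.04) in A and 2.89% (2.83 to 2.95) in B. These intervals, and all others given, cover counting error only, since copies made by PCR are not independent molecules. The share of Gly-CCC-1 was higher in both Alkbh3-/- libraries, with an excess over wild type of 1.16 percentage points on average and an SD of 0.65 points between A and B. This was not particular to Gly-CCC-1. In wild type, A and B the share of Gly-CCC-2 was 0.456%, 0.572% and 0.596%. That of Gly-CCC-3 was 0.362%, 0.398% and 0.435%, and that of Gly-CCC-4 0.259%, 0.280% and 0.290%. These shares depend on the level of Gly-CCC-5 as well, and in A the RPM of Gly-CCC-1 did not exceed wild type in the gene table. In the fragment sheets Gly-CCC-1 stood at 350.4, 375.9 and 574.7 RPM, lowest in wild type.

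**Figure D1:**
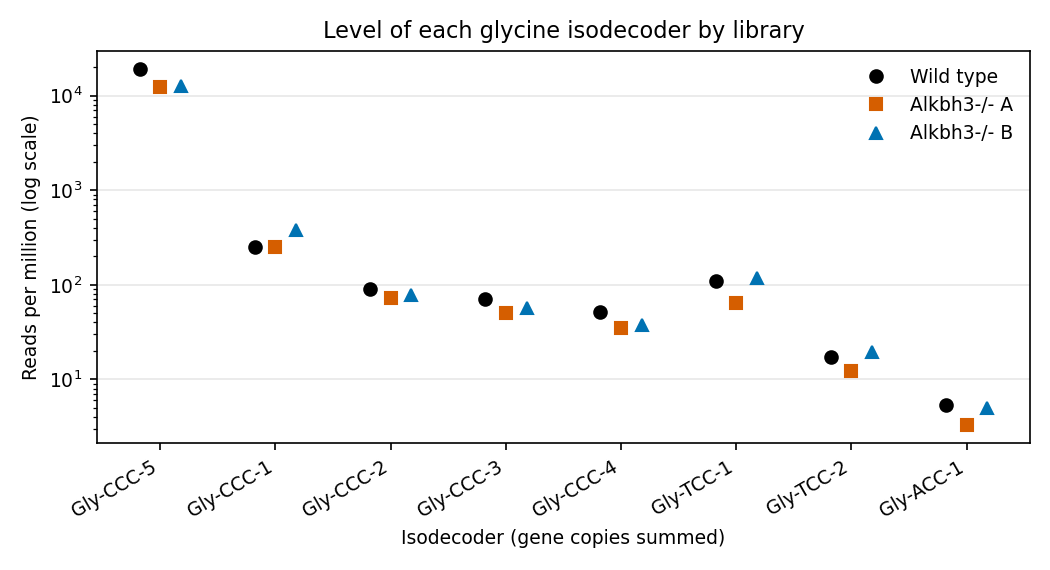
Level of each glycine isodecoder other than Gly-GCC in RPM over the 5 RNA classes, on a log axis, with 1 point for each of the 3 libraries. Gly-CCC-5 stands between 12239.5 and 19291 RPM, every other isodecoder at 379.0 RPM or below, and only Gly-CCC-1 and the Gly-TCC isodecoders are not highest in the wild type library.

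In single gene copies, tRNA-Gly-CCC-5-1 fell in Alkbh3-/- epididymis and no other member passed the test. Its log2 fold change was -0.63 (SE 0.07), with an adjusted p of 0.0189 in edgeR's quasi-likelihood test across 367 gene copies. The fold in each library alone was close, -0.66 in A and -0.62 in B on the log2 scale. Of 16 members tested, 1 was called, against 36 of 367 copies overall (9.81%, either direction). At the level of the sequence the count was 1 of 8 members, Gly-CCC-5, beside a background of 7.33% of 191 isodecoders. Gly-CCC-5 has 1 gene, so these are the same reads with another error estimate (SE 0.18) and not a separate result. At the level of the isoacceptor, 0 of 3 members passed the threshold of 0.05 in edgeR's test, beside 23.9% of 46 isoacceptors, and 1 of the 3, Gly-CCC, had an unadjusted p under it. DESeq2 called 0 of 3 as well, with 0 at an unadjusted p under the threshold. With tRNA sums as library sizes edgeR called 1 of 3, Gly-CCC, at a log2 fold change of -0.35 and an adjusted p of 0.00497. The adjusted p was 0.0865 for Gly-CCC, whose log2 fold change was -0.61 (SE 0.26). It was 0.763 for Gly-TCC at -0.18 (SE 0.36) and 0.741 for Gly-ACC at -0.35 (SE 0.55).

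The call for tRNA-Gly-CCC-5-1 did not hold with TMM scaling, at an adjusted p of 0.101, or with DESeq2, at 0.688. Its log2 fold change lay 0.48 below the median of all tested copies under each of those settings and the original one. A new scaling shifts all copies by nearly the same amount, so this distance had to stay and is no check on the fall. The median itself moved from -0.15 to -0.03 with TMM, 0.03 with DESeq2 and 0.11 with tRNA sums as library sizes. Error estimates in these tests rest on the spread between libraries A and B, and the lone wild type library is taken to be as variable as they are. For isoacceptors, isodecoders and fragments, edgeR pooled this spread fully over the tested features. An SE there is thus not the feature's own spread between A and B. For gene copies the spread was pooled only in part. The labels do not say that A and B come from separate animals, so each p-value reflects sample-to-sample spread that could be technical. With 1 library set against 2, the smallest p of any exact permutation test is 0.333, so none was run.

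The level of tRNA-Gly-CCC-5-1 was close to that of 1 abundant Gly-GCC copy in every library. It had 291433 reads in the wild type library, and the 10 copies of Gly-GCC-2, -3 and -4 had 262347 to 299456 reads each. In library A it had 188629 reads beside 181078 to 204367, and in library B 265960 beside 258399 to 289937. It thus lay inside the range of single Gly-GCC copies in all 3 libraries. Its length profile was also near theirs up to 32 nt. At 31 nt it had 326798, 192149 and 259577 reads, against medians over the 10 copies of 285205, 168690.5 and 228015 reads. The highest single Gly-GCC copies had 324152, 190549 and 257357 reads of 31 nt, so at this length tRNA-Gly-CCC-5-1 lay just above their range. At 30 nt and 32 nt its reads came to between 104% and 109% of those medians.

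Beyond 32 nt the resemblance ended. Reads of 33 nt came to 46.2%, 41.1% and 32.9% of the Gly-GCC median in wild type, A and B. Reads of 34 to 36 nt came to 2.13%, 2.62% and 1.22%. At 37 nt or longer tRNA-Gly-CCC-5-1 had 2, 1 and 3 reads, while single Gly-GCC copies had 3063 to 3347, 9027 to 9905 and 12292 to 13493. No read of 50 nt was assigned to it among 489185, 317324 and 447980 reads. The sources used here do not say how reads matching several genes were counted. Whether the fragments of up to 32 nt assigned to tRNA-Gly-CCC-5-1 also match Gly-GCC genes was not tested, because no tRNA sequences were used here.

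**Figure D2:**
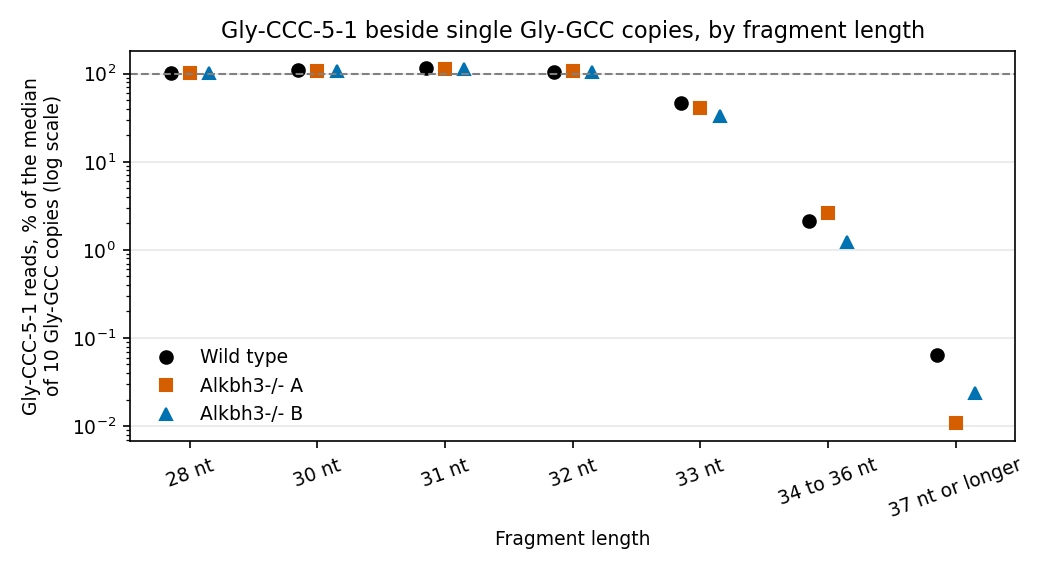
Reads of tRNA-Gly-CCC-5-1 at each fragment length, as a percentage of the median of the 10 copies of Gly-GCC-2, -3 and -4 in the same library, on a log axis. The dashed line marks 100%. At 28, 30, 31 and 32 nt all 3 libraries lie between 101% and 115%, and at 37 nt or longer the highest is 0.0643%.

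The fall of tRNA-Gly-CCC-5-1 also ran beside that of the same Gly-GCC copies. All 10 of them were called lower, with log2 fold changes of -0.55 to -0.53 and adjusted p of at most 0.0206 in edgeR's test. The background was 9.81% of 367 copies called in either direction. Copies with one mature sequence may share reads, so the 10 are not independent evidence. Summed by isodecoder, Gly-GCC-2 and Gly-GCC-4 were called and Gly-GCC-3 was not (adjusted p 0.0562 by edgeR). DESeq2 called only 6 of all 367 copies lower, so not all 10 were called there. None of the 5 copies of Gly-GCC-1, -5 and -6 was called. Whether tRNA-Gly-CCC-5-1 and these Gly-GCC copies differ in their fold change was not tested.

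By fragment length, 1 fragment of Gly-CCC fell, the 31 nt fragment of the first end class. It stood at 21811 RPM in the wild type library, 12576 in A and 12379 in B, with the wild type value far above both. The log2 fold change was -0.81 (SE 0.21), with an adjusted p of 0.0117 in edgeR's test of 572 fragments defined by isoacceptor, length and end class. It was the 1 fragment called among 48 fragments of the members, with 2 at an unadjusted p under 0.05, beside 13 of 572 called overall (2.27%). It was no longer called with tRNA sums as library sizes (adjusted p 0.235), with DESeq2 (0.312), without a filter on low counts (0.154) or with edgeR's older method (0.0723). Fragments of 30 nt stood at 7284, 5533 and 6192 RPM (log2 fold change -0.31, SE 0.28, adjusted p 0.759 by edgeR). Those of 32 nt stood at 2531, 1698 and 1767 RPM (-0.55, SE 0.37, adjusted p 0.642 by edgeR). At 28 and 29 nt the wild type value lay between A and B. Fragments of 29 nt stood at 474.5, 465.0 and 514.9 RPM, and those of 28 nt at 376.7, 343.4 and 392.8 RPM, with log2 fold changes of 0.05 and -0.03. Shorter still, the order varied by length. Fragments of 27 nt, at 62.6, 67.0 and 87.2 RPM, were lowest in wild type (log2 fold change 0.30), and those of 25 nt, at 32.6, 27.9 and 25.1 RPM, highest in it (-0.30), with an adjusted p of 0.931 by edgeR for both.

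The 4 minor Gly-CCC isodecoders did not share one length profile. In Gly-CCC-4, Gly-CCC-3 and Gly-CCC-2 most reads were 30 to 33 nt long, as in Gly-CCC-5. At 31 nt, Gly-CCC-4 fragments stood at 56.1, 32.1 and 33.2 RPM, Gly-CCC-3 fragments at 65.4, 42.0 and 44.8 RPM and Gly-CCC-2 fragments at 57.1, 33.7 and 38.5 RPM. All 3 were highest in the wild type library, but none passed the test at these depths (log2 fold changes -0.78, -0.59 and -0.66, with adjusted p of 0.524, 0.632 and 0.575 by edgeR on fragments split by isodecoder). Gly-CCC-2 and Gly-CCC-3 also carried fragments of 50 nt. In Gly-CCC-2 they made up 7.46% of reads in wild type (exact 95% interval 6.38 to 8.67), 13.1% (11.5 to 14.8) in A and 9.18% (8.09 to 10.4) in B. Gly-CCC-4, like Gly-CCC-5, had no read of 50 nt.

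Gly-CCC-1 had a profile of its own, with little at 31 nt, where each copy kept at most 0.30% of its reads in any library. Its most frequent lengths were 32 to 35 nt. Reads of 34 nt made up 26.2%, 31.6% and 26.1% in wild type, A and B. Reads of 33 nt made up 11.7% (exact 95% interval 10.8 to 12.6) in wild type, 14.7% (13.8 to 15.7) in A and 26.5% (25.7 to 27.3) in B. Reads of 35 nt made up 14.4%, 7.75% and 5.83%, the reverse order. The 33 nt fragments of the first end class stood at 37.3, 53.1 and 150.3 RPM, lowest in wild type but with A nearer to wild type than to B. Their log2 fold change of 1.45 (SE 0.53) did not pass the threshold (adjusted p 0.119 by edgeR, 970 fragments by isodecoder). The higher level of Gly-CCC-1 in B lay mostly at these lengths. Fragments of 30 to 33 nt stood at 125.4, 143.1 and 282.1 RPM, and those of 34 to 36 nt at 147.0, 150.5 and 186.5 RPM. Both gene copies showed the same shares at 33 nt, 11.2% and 12.2% in wild type, 14.3% and 15.2% in A, and 26.9% and 26.1% in B. Copies with one mature sequence may share reads, so the pair is not independent evidence.

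**Figure D3:**
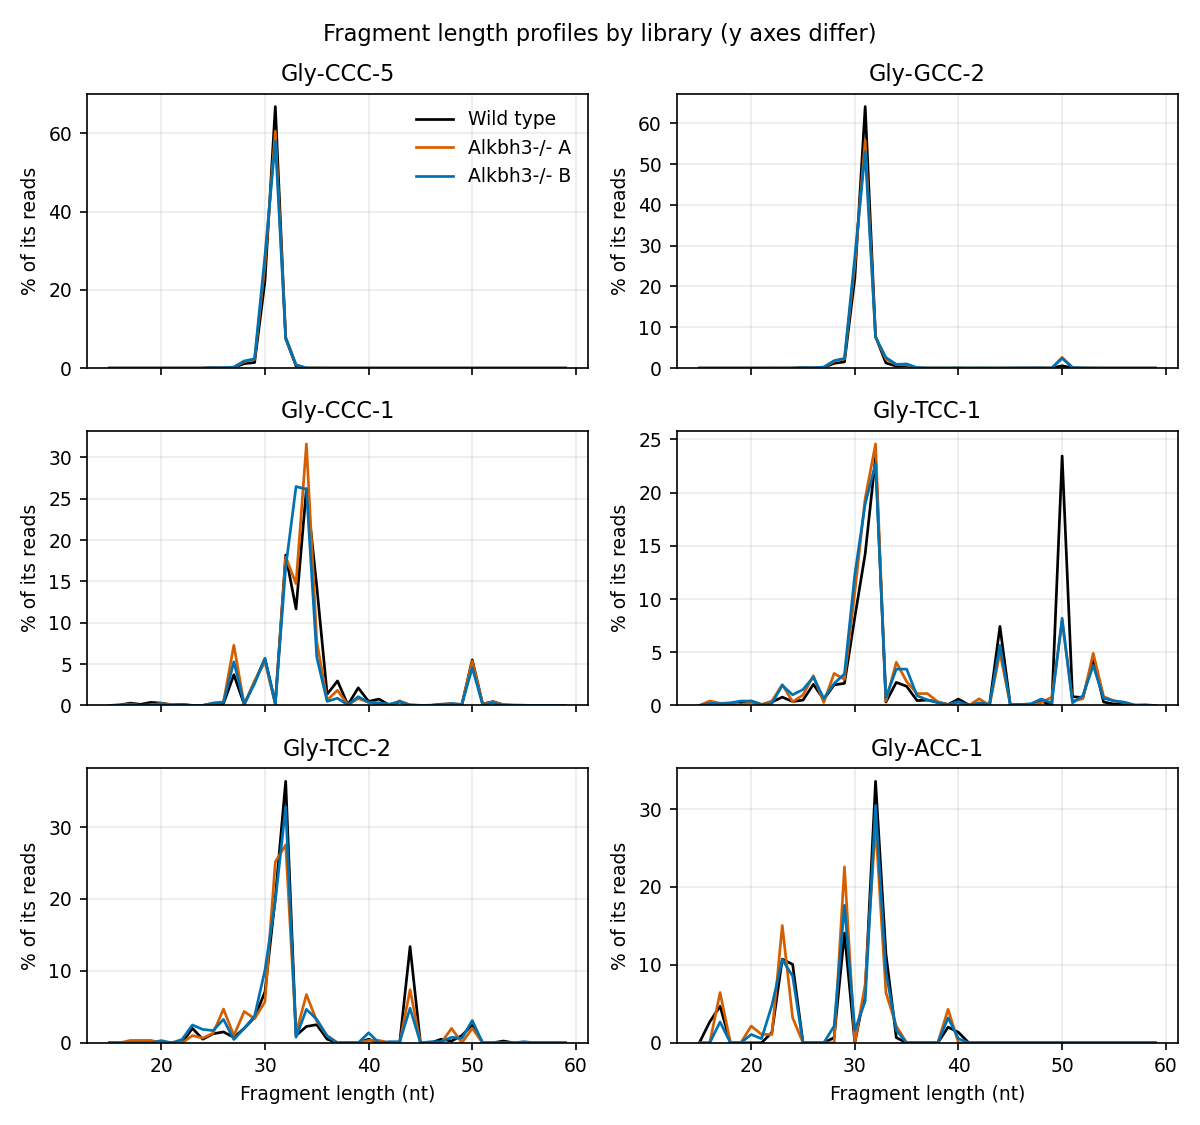
Share of reads at each fragment length, in percent of the reads of that isodecoder in that library, for 5 member isodecoders and Gly-GCC-2 (y axes differ between panels). Gly-CCC-5 and Gly-GCC-2 both peak at 31 nt, Gly-CCC-1 at 33 to 34 nt, and the 50 nt peak of Gly-TCC-1 is 23.4% in wild type and 7.91% and 8.20% in A and B.

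Gly-TCC, which reads the codon GGA, stood apart in its share of 50 nt reads, though not in their RPM in wild type. Fragments of 50 nt made up 20.2% of Gly-TCC reads in the wild type library (exact 95% interval 18.7 to 21.8), 6.89% (5.74 to 8.19) in A and 7.43% (6.65 to 8.26) in B. They stood at 34.3, 7.72 and 14.9 RPM, so both Alkbh3-/- libraries lay below wild type, with B above A. Gly-CCC fragments of 50 nt stood at 33.5, 39.6 and 41.5 RPM, lowest in wild type. Summed by isoacceptor, the log2 fold change of the Gly-TCC fragment, -1.57 (SE 0.55), did not pass the threshold in edgeR's test, at an adjusted p of 0.123. It passed with TMM scaling (-1.63, adjusted p 0.0011) and with DESeq2 (-1.56, adjusted p 0.0206), and over all alternatives the adjusted p ran from 0.0011 to 0.513. With fragments split by isodecoder, a comparison added after the data were seen, the 50 nt fragment of Gly-TCC-1 fell (log2 fold change -1.64, SE 0.51, adjusted p 0.0402 by edgeR). It and the 31 nt fragment of Gly-CCC-5, at -0.81 and an adjusted p of 3.6e-05 by edgeR, were the 2 members called of 82, beside 3.09% of 970 fragments. In wild type, Gly-CCC-5 held 326798 of the 329506 Gly-CCC reads of 31 nt in the first end class. Its call is thus the 31 nt result of Gly-CCC with another error estimate, and not a separate result. Other scalings were not run on fragments split in this way.

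The 50 nt fragment belonged to the Gly-TCC-1 sequence. In Gly-TCC-1 it made up 23.4%, 7.91% and 8.20% of reads in wild type, A and B. It was the most frequent length of the first end class in wild type, where 32 nt was the most frequent in A and B. In Gly-TCC-2 the 50 nt fragment made up 2.53%, 2.01% and 3.11%, on 10, 6 and 20 reads. Over the 7 copies of Gly-TCC-1, the 50 nt share was 19.4% to 26.3% in wild type, 5.39% to 11.8% in A and 5.82% to 10.4% in B, so every copy was higher in wild type. These copies carry one mature sequence and may share reads. The longer 53 nt fragment of Gly-TCC did not follow, at 6.42, 4.48 and 6.28 RPM (log2 fold change -0.23, SE 0.62, adjusted p 0.957 by edgeR). Lengths of 50 nt and more lie at the edge of the excised gel window. Gly-GCC fragments of 50 nt rose in the same libraries. They stood at 1725, 5359 and 5043 RPM, a log2 fold change of 1.59 at an adjusted p of 4.8e-04 by edgeR (SE 0.34). The difference between the Gly-TCC and Gly-GCC fold changes was not tested.

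Without the 50 nt fragment the sum of Gly-TCC reads kept its order over the libraries. The other lengths summed to 135.4, 104.3 and 185.5 RPM, again with wild type between A and B. Fragments of 30 to 33 nt stood at 83.2, 62.6 and 112.3 RPM, and those of 15 to 29 nt at 16.5, 15.9 and 29.6 RPM, in that same order. Fragments of 34 to 36 nt were lowest in wild type, at 7.74, 8.95 and 15.9 RPM, and those of 37 to 49 nt highest in it, at 18.3, 9.86 and 16.8 RPM. Fragments of 44 nt stood at 14.2, 6.03 and 11.1 RPM (log2 fold change -0.69, SE 0.57, adjusted p 0.740 by edgeR). In Gly-TCC-2 the 44 nt fragment was the third most frequent in wild type, behind 32 and 31 nt, at 13.4% of reads (exact 95% interval 10.2 to 17.1), against 7.38% (4.68 to 11.0) in A and 4.81% (3.29 to 6.76) in B. Its log2 fold change of -1.27 (SE 0.59) did not pass (adjusted p 0.285 by edgeR, fragments by isodecoder).

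**Figure D4:**
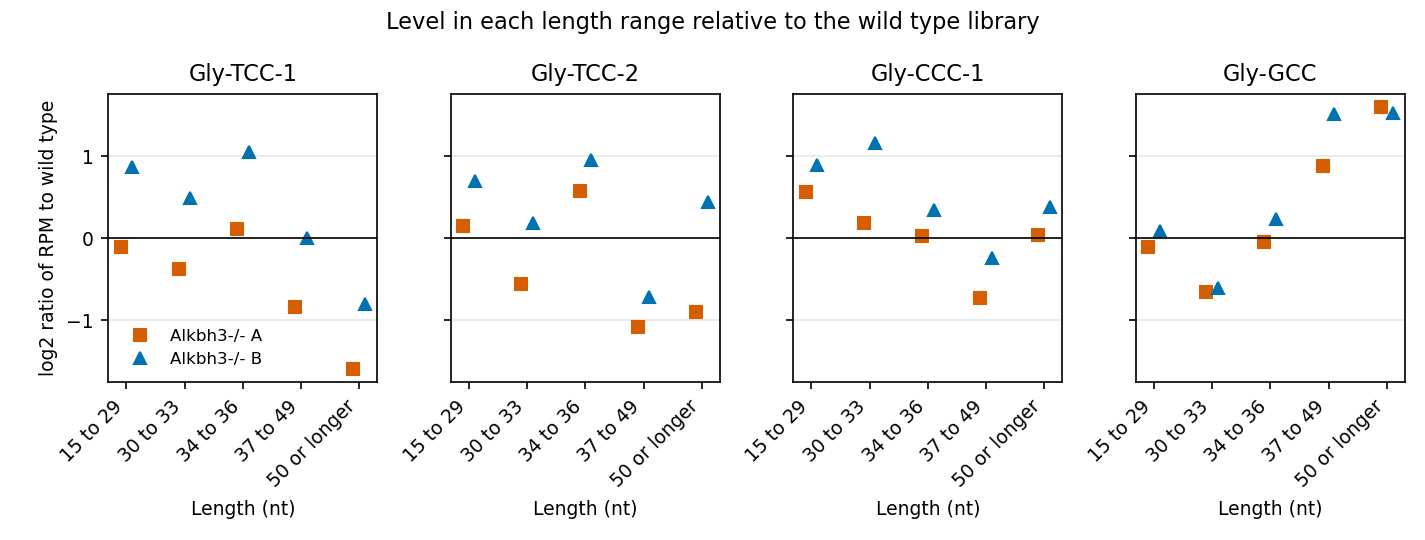
Log2 ratio of RPM to the wild type library in 5 length ranges, for Alkbh3-/- libraries A (squares) and B (triangles). At 50 nt or longer Gly-TCC-1 lies at -1.60 and -0.80 and Gly-GCC at 1.61 and 1.54. In that range Gly-TCC-2 lies at -0.90 and 0.45 and Gly-CCC-1 at 0.04 and 0.39.

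Among gene copies of Gly-TCC, tRNA-Gly-TCC-1-5 (chr1:171102756-171102827, plus strand) stood above the rest. It had 448, 286 and 637 reads in wild type, A and B. That was 2.23, 2.43 and 2.06 times the mean of the 6 other copies of the same sequence. Those had 191 to 211 reads each in wild type. All 8 Gly-TCC genes had the wild type value between A and B. Their log2 fold changes ran from -0.26 to -0.07, and the lowest adjusted p among them was 0.974 by edgeR. Highest in the wild type library were 5 of 7 Gly-CCC genes, 0 of 8 Gly-TCC genes and the 1 Gly-ACC gene with reads, beside 47.4% of all 367 gene copies. Of the 3 isoacceptors it was 2, beside 52.2% of 46.

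The second end class held 0.377% to 0.418% of the reads of all tRNA genes in each library. In Gly-CCC as a whole it made up 0.20% to 0.21%, nearly all of it in Gly-CCC-1, and Gly-CCC-5 had none. In Gly-ACC it made up 3.36%, 4.30% and 3.74%, on 5, 4 and 7 reads. In Gly-CCC-1 the second class made up 19.3% of reads in wild type (exact 95% interval 18.2 to 20.4), 11.5% (10.7 to 12.3) in A and 7.64% (7.18 to 8.13) in B. The second class reads of Gly-CCC-1 were most often 34 nt long in all 3 libraries. The share was lowest in B, the library with the most 33 nt reads of the first class. The 34 nt fragment of the second class stood at 17.3, 12.1 and 16.8 RPM, so A and not B was lowest. In Gly-TCC the second class made up 5.50% (4.65 to 6.46) in wild type, 9.56% (8.21 to 11.0) in A and 7.33% (6.56 to 8.16) in B, all of it in wild type from Gly-TCC-1 and most often 30 nt long.

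Gly-ACC was the least of the members. The anticodon ACC would read GGU, and mouse glycine decoding is known to rest on the other 3 anticodons. All of its reads came from tRNA-Gly-ACC-1-1, with 82, 51 and 105 reads in the gene table and 149, 93 and 187 in the fragment sheets. Its most frequent fragment was 32 nt long in every library, at 33.6%, 27.96% and 30.5% of reads. Fragments of 29 nt made up 14.1%, 22.6% and 17.6%, and those of 23 nt 10.7%, 15.1% and 10.7%. All reads of 37 nt or longer, 5, 4 and 7 of them, were 39 or 40 nt long and of the second end class. None was 50 nt or longer, which at this depth allows a share of up to 2.01%, 3.23% and 1.60%. Of its fragments 3 had enough reads for the test. The 32 nt fragment stood at 3.31, 1.69 and 2.69 RPM (log2 fold change -0.55, SE 0.73, adjusted p 0.870 by edgeR).

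The isoacceptors most like the members were found among 44 with a mean of 50 or more reads. By the log2 ratios of A and B to wild type, which share the wild type library, the nearest to Gly-CCC were Arg-CCG (-0.61 and -0.59), Gln-TTG (-0.71 and -0.58) and Gly-GCC (-0.57 and -0.51). Those of Gly-CCC were -0.64 and -0.59. The nearest to Gly-TCC (-0.72 and 0.11) were Gly-ACC (-0.71 and -0.13), Met-CAT and Val-AAC, and the nearest to Gly-ACC were Val-CAC, SeC-TCA and Met-CAT. By length profile, on a distance from 0 for identical to 1 for disjoint profiles, Gly-GCC was nearest to Gly-CCC at 0.042, ahead of Pro-AGG at 0.166. Gly-TCC had no near neighbour, the closest being Lys-CTT at 0.440. Gly-ACC was closest to Val-AAC at 0.278 and Val-CAC at 0.312.

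Set beside 9 isoacceptors known as parents of long fragments in the male tract, Gly-CCC was 1 of 7 that did not pass the test in this list, which was chosen with earlier results known. In it Glu-CTC rose, from 30918 to 54516 and 57504 RPM, and Gly-GCC fell, with a median log2 fold change over the list of -0.26. Over all 46 isoacceptors 3 rose and 8 fell, with the same median of -0.26. Over the 4 glycine isoacceptors 0 rose and 1, Gly-GCC, fell, with a median of -0.44. Gly-GCC itself moved by -0.54 (SE 0.05) on the log2 scale.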

How the data were processed

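Total RNA (100 μg) was resolved on a 15% gel and the excised small RNA made into libraries, per the labels' protocols. The deposited tables hold raw counts per RNA class, raw counts per tRNA gene and, for each gene, reads by length in 2 end classes. The submitters' processing notes name cutadapt and mm10. The sources used here name no aligner, counting rule or annotation. The fragment sheets hold more reads than the gene table (Gly-CCC 1.67 to 1.68 per gene read, Gly-TCC 1.34 to 1.46), and 6 columns holding sums were left out. Column names gave the genotype of each library but no replicate number.

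Features with 10 or more reads over the 3 libraries (fragments with 10 in each) were tested with edgeR 4.0.16 in R 4.3.3 (quasi-likelihood, library size from 5 RNA classes, no composition factor, Benjamini-Hochberg over all features). SE is the log2 fold change over the square root of F. DESeq2 1.42.0, other scalings and filters were alternatives. Shares carry exact Clopper-Pearson 95% intervals (scipy). Upper limits for 0 reads use 3 reads. The code was tested on simulated data with a fixed spread between libraries. There edgeR recovered 46% of 2-fold changes among gene copies, 59.2% among isoacceptors and 68.1% among fragments. Of its calls 4.90%, 7.5% and 2.49% were false, in the same order. Members, lists and rules (all copies, called fragments, the 5 most abundant and the most frequent lengths, the 3 nearest isoacceptors) were chosen with earlier results of these data known. The isodecoder sums, isodecoder fragments, the older edgeR method and the comparison of Gly-CCC-5-1 with single Gly-GCC copies were added after the data were seen, as were the other lengths and distances named in the text.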

Additional observations from a re-analysis of the deposited data

How the results depend on the processing

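Counts of calls moved with the settings. Of isoacceptors, 11 were called, against 3 by DESeq2, 5 by the older quasi-likelihood method and 5 without the most abundant copy of each member. Of gene copies, 36 were called, against 23 with TMM, 21 with tRNA sums as library sizes, 18 by DESeq2 and 14 with copies summed by isodecoder. Of fragments, 13 were called, against 48 with TMM, 32 by DESeq2, 4 without a filter and 30 by isodecoder. Without a filter 2336 fragments were tested in place of 572, and for the other shifts the cause was not tested. Leaving out A or B leaves 1 library against 1, a value with no test, so these give no count of calls.

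The log2 fold change of Gly-CCC was -0.35 with tRNA sums (called, adjusted p 0.00497 by edgeR) and 0.055 without its most abundant copy, which holds nearly all its reads, and -0.64 to -0.59 with A or B left out. Gly-TCC was at 0.079 with tRNA sums, 0.056 by DESeq2 and -0.72 to 0.11 with A or B left out. With tRNA sums, Gly-CCC-2-2 was at 0.083, Gly-TCC-1-2 to 1-7 at 0.079, 0.070, 0.11, 0.029, 0.053 and 0.12, and Gly-TCC-2-1 at 0.19 (0.048 with TMM, 0.071 by DESeq2). Gly-CCC-2-2 was at 0.0079 by DESeq2. Leaving out A or B gave -0.0485 to 0.56 for Gly-CCC-1-2, -0.86 to 0.055 for Gly-TCC-1-1, -0.88 to 0.17 for 1-2, -0.85 to 0.15 for 1-3, -0.71 to 0.15 for 1-4, -0.68 to 0.021 for 1-5, -0.81 to 0.11 for 1-6, -0.71 to 0.17 for 1-7 and -0.47 to 0.16 for Gly-TCC-2-1.

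Of fragments, tRNA sums gave 0.089 for Gly-ACC 23 nt, 0.25 for Gly-CCC 28 nt (0.038 by DESeq2), 0.027 for Gly-CCC 34 nt of the second end class and 0.11 for Gly-TCC 32 nt. Leaving out A or B gave -0.029 to 0.17 for Gly-ACC 29 nt, -0.13 to 0.060 for Gly-CCC 28 nt, -0.029 to 0.12 for Gly-CCC 29 nt, -0.53 to 0.84 for Gly-TCC 30 nt, -0.27 to 0.52 for Gly-TCC 31 nt and -0.64 to 0.17 for Gly-TCC 32 nt. In the Gly-CCC share of 30 to 33 nt, the difference from wild type was -2.09 points (-2.39 to -1.79 with A or B left out) and -1.57 in the most abundant copy alone. In the share of 50 nt or longer it was 0.0922 points (0.0902 to 0.0942) and 0 in that copy. For Gly-TCC these were 6.24 points in the first end class and 7.31 in the most abundant copy at 30 to 33 nt, and -13.3 and -13.9 at 50 nt or longer. The causes were not tested. Among single genes and fragments, 206 values kept direction and, where a test was run, side of the threshold, and 31 reversed. Another 6 were no longer past the threshold and 2 were newly past it. Among counts of calls, isoacceptors, length shares and copy shares, 58 values were kept, 17 moved, 4 reversed and 1 was newly past the threshold. A count moved where it differed by more than 1.5-fold, and other values where the shift exceeded the SD between A and B. Values with A or B left out have no test. They counted as kept where direction held and the shift lay within the SD between A and B. No paired analysis was possible because there is 1 wild type library and the columns carry no replicate numbers. Gly-ACC values rest on 51 to 105 reads.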
